A study of Mus musculus with 18 samples.

Results

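Tendon fibroblasts (TFs) of Ctrl mice were compared after 4 days of culture in 1% O2 with the same kind of cells kept in 20% O2, and the comparison is described here over all expressed genes. Its fold changes rest on the 6 libraries of Ctrl TFs that received no Cre gesicles, 3 in 1% O2 and 3 in 20% O2. The series holds 18 libraries. For the tests, the spread between libraries was estimated from 12 libraries, which include 6 of the cKO genotype described below. The libraries were chosen by their labels, and each was matched to its column of the count table by the description that GEO holds for the sample. Ctrl mice were the Cre-negative members of a mixed C57BL6J and 129S1 stock with floxed *Hif1a*, aged 4 to 6 months and of both sexes, and all 6 libraries share this genotype. Fibroblasts had crawled out of tail tendons set in collagen gel and were passaged before they were plated, without load, and kept either at 20% O2 or in a hypoxia workstation at 1% O2. Such cells come from a positional tendon and have left their matrix and its load. Poly-A RNA was sequenced as paired reads and the authors deposited estimated counts per gene. Fewer cells of a kind and less RNA per cell cannot be told apart in such bulk libraries.

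Cells sense oxygen through enzymes that need it as a substrate. In low oxygen the prolyl hydroxylases that mark HIF-α proteins for breakdown slow down, HIF-α pairs with ARNT, and the pair binds promoters with the short core ACGTG or GCGTG and turns on glucose uptake, glycolysis, vessel growth signals and iron handling. Oxygen is also the last electron acceptor of the respiratory chain, a substrate of sterol synthesis and of collagen hydroxylation, and the source of the peroxides that antioxidant enzymes remove. Tendon is poor in vessels, and its fibroblasts live by making and keeping collagen fibrils.

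Library totals lay between 32579711 and 39221066 counts, with 21052 to 21293 genes counted in each, so that a floor of 3 counts stood for 0.0765 to 0.0921 CPM before scaling. Levels below are CPM after TMM scaling, the counts of a gene as a share of its library, and floors cover counting error only. The tendon markers *Scx*, *Tnmd*, *Mkx*, *Thbs4*, *Fmod*, *Col1a1* and *Col1a2* were all present, as were the 6 general fibroblast markers listed. Of the latter, *Lum* was scarce (1.01 to 1.43 CPM) and *Dpt* varied (3.16 to 120 CPM). Of the markers of other cells, 0 of 7 endothelial, 0 of 6 lymphocyte and 0 of 6 erythroid genes passed the filter on low counts. *Adgre1* and *C1qa* of macrophages, *Cd3e* of lymphocytes and *Myod1*, *Myog*, *Myf5* and *Pax7* of muscle had no count in any of the 6 libraries. Other members of those lists were present, among them *Lyz2* (10.7 to 18.7 CPM), *Cd68* and *Csf1r* of the macrophage list and *Acta1* (22.3 to 42.1 CPM) and *Des* of the muscle list. All 7 pericyte and smooth muscle genes and 5 of 6 Schwann and neural genes passed the filter, with *Cspg4* at 9.20 to 74.5 CPM, *Myh11* at 15.6 to 65.3 CPM and *Pmp22* at 287 to 636 CPM. So did 4 of 6 chondrocyte genes, among them *Comp* (348 to 731 CPM) and *Sox9* (20.8 to 51.6 CPM), whereas *Acan* had no count. The share of other cells in these cultures was not tested. Libraries that carry the same replicate number deviated together from their group means (r = 0.337, 0.329 and 0.623 across genes, which are not independent replicates). Libraries with different numbers had r from −0.414 to 0.0031. Deviations within a group sum to 0 for each gene, so positive values for the same number push the others down. On the first principal component, which held 51.9% of the variance, Ctrl 1% O2 replicate 2 lay at 0.765, nearer to the 20% O2 libraries (6.56 to 19.9) than replicates 1 and 3 did (−25.7 and −14.4).

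Of the 15850 genes tested, 233 rose in 1% O2 (1.47%) and 65 fell (0.41%), together 298 (1.88%), where a call needed a change of 1.5-fold or more and an adjusted p under 0.05 in edgeR's quasi-likelihood test. Errors after a log2 change are standard errors (SE), derived from that test as the absolute log2 change over the square root of its F statistic. Adjusted p-values are those of edgeR over all genes tested unless another tool is named. The median log2 fold change over all genes tested was 0.0002 on this scale. An unadjusted p under 0.05 in edgeR was reached by 2546 of the 15850 genes, the count to set beside such counts in lists below. Among the genes that rose, 152 rose at least 2-fold and 41 at least 4-fold, and among those that fell, 37 fell at least 2-fold and 8 at least 4-fold. In all 298, the 3 libraries of one oxygen level lay on one side of the 3 of the other, which was also true of 4769 of all genes tested (30.1%). The genes of glycolysis, the classical hypoxia response and sterol synthesis were set aside here: 20 of 42, 22 of 46 and 0 of 24 of them rose, and 0, 0 and 5 fell. Beyond these 3 lists stood 191 of the genes that rose and 60 of those that fell. Only 33 and 10 of these were on any of 49 further lists of pathways and gene families. The split between rising and falling genes depended on the method, with 440 higher and 252 lower by DESeq2 and 778 higher and 765 lower by limma voom with sample weights. With the replicate number as a block, edgeR called 271 higher and 97 lower, among them 252 of the 298. With 1 library left out, 116 genes were called without Ctrl 20% O2 replicate 1, 151 without replicate 2 and 136 without replicate 3 of that group, and 153, 261 and 164 without Ctrl 1% O2 replicate 1, 2 or 3. In all 6 of these fits 92 of the 298 genes were called.

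**Figure D1:**
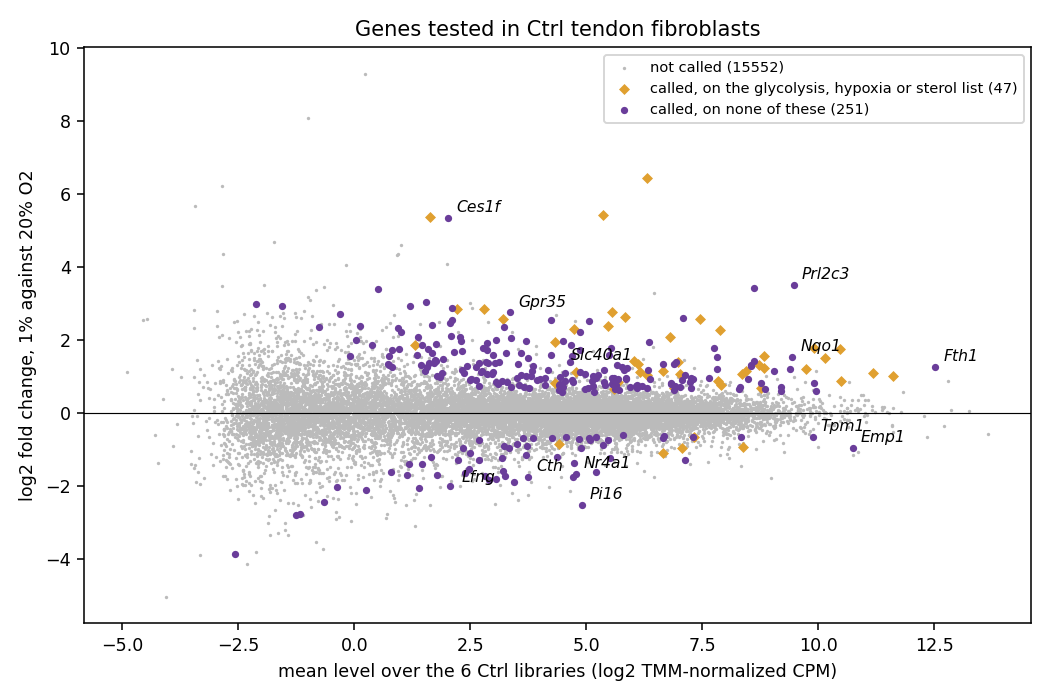
Each point is 1 of the 15850 genes tested, with its mean level over the 6 Ctrl libraries (log2 CPM after TMM scaling) on the x axis and its log2 fold change in 1% against 20% O2 on the y axis. The 251 called genes outside the glycolysis, hypoxia and sterol lists (violet) lie above the zero line more often than below it.

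The largest increases among the genes called outside the 3 lists were those of *Ces1f*, a carboxylesterase, *Prl2c3* and *Prl2c2*, which encode proliferins, secreted relatives of prolactin, and *Cox4i2*, an alternative subunit of cytochrome c oxidase. *Ces1f* (ENSMUSG00000031725, chr8:93256236-93279747) was at 0.243, 0.179 and 0.153 CPM in 20% O2 and 8.13, 9.19 and 6.52 CPM in 1% O2 (log2 change 5.34 ± 0.90, adjusted p = 0.00976). It was close to the floor in all 3 libraries in 20% O2 and well above it in all 3 in 1% O2. *Cox4i2* (ENSMUSG00000009876, chr2:152754173-152765037) was likewise scarce, with 0.162, 0.299 and 0.276 CPM in 20% O2 and 2.07, 2.33 and 3.35 CPM in 1% O2, and changed (log2 change 3.39 ± 0.64, adjusted p = 0.0179). The proliferin genes were abundant in 1% O2. *Prl2c3* (ENSMUSG00000056457, chr13:12790816-12800079) went from 95.1, 106 and 143 CPM in 20% O2 to 1735, 827 and 1350.2 CPM in 1% O2 (log2 change 3.51 ± 0.55, adjusted p = 0.00692). *Prl2c2* (ENSMUSG00000079092) went from 70.1, 65.5 and 64.6 to 1168, 447 and 543 CPM (log2 change 3.43 ± 0.72, adjusted p = 0.0299). Replicate 1 was the highest in 1% O2 for both, and the groups did not overlap. *Prl2c2* and *Prl2c3* are near copies of each other, as are *Ces1f* and *Ces1g*, so how their reads were divided between them is uncertain. The call was lost for *Ces1f* without 20% O2 replicate 1, 2 or 3 (adjusted p up to 0.0559) and for *Cox4i2* without 1% O2 replicate 3 or 20% O2 replicate 1, 2 or 3 (adjusted p up to 0.103). Significance was lost for *Prl2c2* without 1% O2 replicate 1 or 3 or 20% O2 replicate 1, 2 or 3 (adjusted p up to 0.132).

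Several receptors and signalling genes rose together with these. *Gpr35* (ENSMUSG00000026271, chr1:92950865-92986391), a G protein-coupled receptor, was at 1.81, 2.72 and 3.40 CPM in 20% O2 and 15.6, 17.4 and 20.6 CPM in 1% O2 (log2 change 2.76 ± 0.26, adjusted p = 0.00022). *Rgs11* (ENSMUSG00000024186), which shortens G protein signals, had 0.756, 1.28 and 1.04 CPM in 20% O2 and 8.10, 8.01 and 6.55 CPM in 1% O2 (log2 change 2.88 ± 0.27, adjusted p = 0.000205). In neither gene did the groups come near each other. *Tnfsf9* (ENSMUSG00000035678), the ligand of the co-stimulatory receptor 4-1BB, rose (log2 change 3.05 ± 0.42, adjusted p = 0.00259), and *Nr1h3* (ENSMUSG00000002108), the oxysterol receptor LXRα (log2 change 2.47 ± 0.23, adjusted p = 0.000169). *Nr1h3* was at 1.11, 1.55 and 1.20 CPM in 20% O2 and 7.18, 6.53 and 7.65 CPM in 1% O2. The 3 libraries of each oxygen level were within a narrow range for *Nr1h3*, as they were for *As3mt* (ENSMUSG00000003559, chr19:46707458-46741099), an arsenic methyltransferase, with 5.80, 5.47 and 5.46 CPM in 20% O2 and 36.0, 29.4 and 31.9 CPM in 1% O2 (log2 change 2.54 ± 0.16, adjusted p = 5.34e-06). *Gal3st1* (ENSMUSG00000049721), a sulfotransferase of glycolipids, rose by 2.56 ± 0.41 on the log2 scale and *Serinc2* (ENSMUSG00000023232), a membrane protein, by 2.52 ± 0.36 (adjusted p = 0.00692 and 0.00337, edgeR). All of these genes except *Ces1f*, *Cox4i2* and *Prl2c2* kept the call whichever of the 6 Ctrl libraries was left out.

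**Figure D2:**
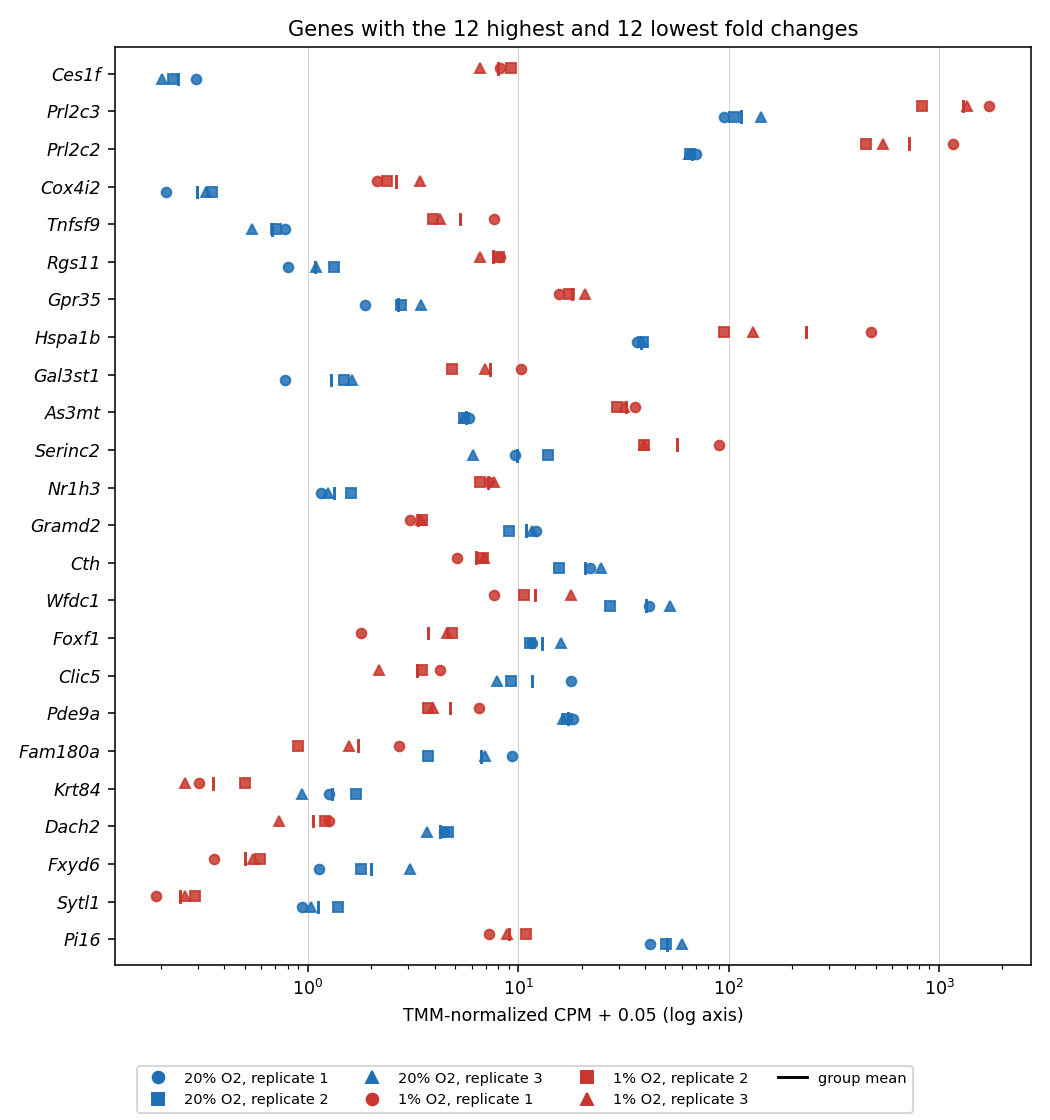
CPM after TMM scaling plus 0.05 on a log axis for the 12 genes with the highest and the 12 with the lowest log2 fold change among called genes outside the 3 lists that reached a mean of 1 CPM in the higher group, do not overlap between groups and have no clone name, with 20% O2 in blue, 1% O2 in red, 1 symbol per replicate and a short line at each group mean. The blue and red symbols of each gene stand apart, from *Ces1f* at the top to *Pi16* at the bottom, and *Hspa1b*, *Serinc2* and *Prl2c2* are highest in 1% O2 replicate 1.

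Antioxidant genes had the most calls of the 49 lists. They include enzymes that make and use glutathione, remove peroxides and superoxide, or reduce quinones, many of them targets of the transcription factor NRF2. Of 39 tested, 9 rose and 0 fell, and the median log2 fold change of the list was 0.37, against 0.0002 over all genes tested. Calls made up 1.47% (higher) and 0.41% (lower) of all genes tested. *Nqo1* (ENSMUSG00000003849, chr8:107388225-107403206), a quinone reductase, was at 386, 304 and 378 CPM in 20% O2 and 1094, 981 and 1038 CPM in 1% O2 (log2 change 1.54 ± 0.22, adjusted p = 0.00378). *Gstm1* (ENSMUSG00000058135, chr3:108012255-108017973), a glutathione transferase, was at 194, 207 and 234 CPM in 20% O2 and 587, 516 and 609 CPM in 1% O2 (log2 change 1.43 ± 0.19, adjusted p = 0.00207). Every library in 1% O2 was at least 2-fold above every library in 20% O2 for both genes. *Gclm* (ENSMUSG00000028124, chr3:122245557-122270732), the modifier subunit of the enzyme that starts glutathione synthesis, was at 227, 199 and 222 CPM in 20% O2 and 493, 535 and 575 CPM in 1% O2 (log2 change 1.304 ± 0.15, adjusted p = 0.000627). *Gstp1* (ENSMUSG00000060803, chr19:4035407-4037985), another glutathione transferase, was at 308, 346 and 327 CPM in 20% O2 and 698, 745 and 747 CPM in 1% O2 (log2 change 1.16 ± 0.23, adjusted p = 0.0236). For both, the lowest 1% O2 library was above the highest 20% O2 library. The other 5 that rose were *Mgst1*, a membrane-bound glutathione transferase (1.05), *Sod3*, the secreted superoxide dismutase (0.94), *Osgin1* (0.86), *Cat*, the catalase of peroxisomes (0.82), and *Srxn1*, which repairs peroxiredoxins (0.67, all log2 fold changes).

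Not all of the list moved. *Keap1*, the inhibitor of NRF2, had an adjusted p of 0.0166 but a log2 fold change of 0.57, under the minimum set, and *Nfe2l2*, which encodes NRF2 itself, was at 184, 189 and 162 CPM in 20% O2 and 210.1, 199.6 and 194 CPM in 1% O2 (log2 change 0.18 ± 0.10, adjusted p = 0.43). *Gclc*, the partner of *Gclm*, was at 132, 119.7 and 128 CPM in 20% O2 and 132, 176 and 181 CPM in 1% O2 (log2 change 0.37 ± 0.17, adjusted p = 0.318), with overlapping groups. *Txnrd1* and *Slc7a11*, both known NRF2 targets, had log2 fold changes of −0.075 and −0.22 with adjusted p = 0.848 and 0.787 (edgeR). The levels of the 39 genes summed to 7147 to 7643 CPM in 20% O2 and to 10973 to 12130 CPM in 1% O2. Of the list, 4 genes rose without Ctrl 1% O2 replicate 3 or Ctrl 20% O2 replicate 3, 5 without Ctrl 20% O2 replicate 2, and 6 or 7 without any one of the others. A call was not made for *Gstp1* with any 1 library left out (adjusted p up to 0.115), while its log2 fold change stayed between 1.12 and 1.20. Members of the *Gstm* family are alike in sequence, so the division of reads among them is uncertain.

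Promoters of the RefSeq annotation (GRCm38.p6, 250 bases before each annotated start, both strands) were found for 11063 of the 15850 genes tested. The HIF core ACGTG was present in 24.8% of them, in 60.5% of the 38 genes of the 3 set-aside lists that rose, in 23.7% of the 139 other genes that rose and in 15.2% of the 46 genes that fell. The core GCGTG was in 49.1% of all genes tested, 65.8% of the genes of the 3 lists that rose, 42.4% of the others and 39.1% of those that fell. The letters TGACNNNGC, as found in the antioxidant response element, were in 13.8% of all genes tested, 15.8% of the genes of the 3 lists that rose, 19.4% of the others that rose and 17.4% of those that fell. These are shares of promoters that hold the letters, not of binding sites. Promoters were found for 8 of the antioxidant genes that rose, of which 3 held ACGTG and 2 held TGACNNNGC. Stretches with such letters are shown for some of the genes named here, to let the motif and its surroundings be read beside the values. Each is given 5′ to 3′ on the strand of the gene. Capitals mark the motif, which is printed as its reverse complement where it lies on the other strand.
*Gpr35*, ACGTG, chr1:92978719-92978779, gene on the plus strand: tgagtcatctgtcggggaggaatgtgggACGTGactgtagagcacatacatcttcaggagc
*Gstm1*, ACGTG, chr3:108017836-108017896, gene on the minus strand: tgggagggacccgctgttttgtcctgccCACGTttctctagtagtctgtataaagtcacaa
*Gclm*, ACGTG, chr3:122245462-122245522, gene on the plus strand: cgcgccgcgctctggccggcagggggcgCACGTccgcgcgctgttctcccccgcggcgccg
*Gstp1*, ACGTG, chr19:4037960-4038020, gene on the minus strand: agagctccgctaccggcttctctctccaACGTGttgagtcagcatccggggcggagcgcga
*Lfng*, ACGTG, chr5:140607202-140607262, gene on the plus strand: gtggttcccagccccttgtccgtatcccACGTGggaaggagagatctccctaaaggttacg
*Gclm*, TGACNNNGC, chr3:122245395-122245459, gene on the plus strand: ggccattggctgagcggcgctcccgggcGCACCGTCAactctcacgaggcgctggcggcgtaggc
*Hfe*, TGACNNNGC, chr13:23710885-23710949, gene on the minus strand: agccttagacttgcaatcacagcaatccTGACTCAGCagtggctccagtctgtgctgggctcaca
*Procr*, TGACNNNGC, chr2:155751035-155751099, gene on the plus strand: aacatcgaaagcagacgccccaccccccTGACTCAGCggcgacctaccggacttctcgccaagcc

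Both ACGTG and TGACNNNGC were found for several genes in each direction. Among them were *Gclm*, *Hsph1* and *P4ha1*, which rose, and *Lfng*, *Dgka* and *Lmo7*, which fell in 1% O2. TGACNNNGC was also found for *Emp1*, *Clic5* and *Fxyd6*, which fell. The TGACNNNGC stretches of genes that fell are not shown.

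Iron genes gave 4 calls, all of them higher in 1% O2. Cells take up iron from transferrin, store it in ferritin and export it through ferroportin, and iron is the metal at the centre of the oxygen-sensing hydroxylases. Of 21 tested, 4 rose and 0 fell, with a median log2 fold change of 0.48, whereas 1.47% of all genes tested rose and 0.41% fell. *Fth1* (ENSMUSG00000024661, chr19:9980598-9985098), the heavy chain of ferritin, was among the most abundant of all called genes, with 3379, 3696 and 3382 CPM in 20% O2 and 8799, 7999.5 and 8148 CPM in 1% O2 (log2 change 1.25 ± 0.25, adjusted p = 0.0225). *Slc40a1* (ENSMUSG00000025993, chr1:45908068-45926523), which encodes ferroportin, was at 8.80, 7.56 and 10.9 CPM in 20% O2 and 16.7, 48.0 and 43.6 CPM in 1% O2 (log2 change 1.99 ± 0.32, adjusted p = 0.00732). In 1% O2, *Slc40a1* was lowest in replicate 1, yet still above all libraries in 20% O2. *Trf* (ENSMUSG00000032554, chr9:103204001-103230444), transferrin, was at 9.64, 9.65 and 9.05 CPM in 20% O2 and 35.6, 27.2 and 22.8 CPM in 1% O2 (log2 change 1.59 ± 0.19, adjusted p = 0.000747). *Hfe* (ENSMUSG00000006611, chr13:23702034-23710854), a partner of the transferrin receptor, was at 19.4, 17.5 and 18 CPM in 20% O2 and 42.3, 38.4 and 39.9 CPM in 1% O2 (log2 change 1.14 ± 0.12, adjusted p = 0.000457). Their groups were clearly apart, and replicates within a group differed little for *Hfe*. *Ftl1*, the light chain of ferritin, was at 5059.7, 4666 and 5264 CPM in 20% O2 and 8562, 8733 and 10231 CPM in 1% O2 and did not pass the test (log2 change 0.88 ± 0.22, adjusted p = 0.0602), and *Heph*, a ferroxidase that works with ferroportin, did not either (log2 change 1.70 ± 0.41, adjusted p = 0.0541). With the replicate block both passed (adjusted p = 0.0232 and 0.00255, edgeR), so that 6 of 21 rose. The summed level of the list, most of it from *Fth1* and *Ftl1*, was 9248 to 9414 CPM in 20% O2 and 17783 to 19366 CPM in 1% O2. Of the 21 genes, 14 had a log2 fold change above 0 and 7 below. No call was made for *Fth1* without 1% O2 replicate 1 or 3 or 20% O2 replicate 1, 2 or 3 (adjusted p up to 0.105). The list gave 3 to 5 calls with 1 library left out.

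Heat shock genes, which code for chaperones that refold proteins, gave 3 calls. Of 27 genes of this list tested, 3 rose and 0 fell, with a median log2 fold change of 0.23. Among all genes tested, 1.47% rose and 0.41% fell. *Hspa1b* (ENSMUSG00000090877), an inducible HSP70, was at 36.6, 39.0 and 38.7 CPM in 20% O2 and 472, 95.1 and 129.9 CPM in 1% O2 (log2 change 2.61 ± 0.53, adjusted p = 0.0237). *Hspa1a* (ENSMUSG00000091971), its neighbour and near copy, was at 9.83, 9.26 and 11.6 CPM in 20% O2 and 77.4, 28.6 and 37.6 CPM in 1% O2 (log2 change 2.23 ± 0.31, adjusted p = 0.00321). Replicate 1 was far above the other 1% O2 libraries for both, and all 3 were above every 20% O2 library. Without Ctrl 1% O2 replicate 1, the log2 fold change of *Hspa1b* was 1.56. *Hsph1* (ENSMUSG00000029657, chr5:149614287-149636376), an HSP110 that recharges HSP70, was at 125, 140.3 and 141 CPM in 20% O2 and 304, 246 and 244 CPM in 1% O2 (log2 change 0.97 ± 0.12, adjusted p = 0.00142). Reads of *Hspa1a* and *Hspa1b* are hard to assign, since the genes are nearly identical. The call was lost for *Hspa1b* without 20% O2 replicate 1, 2 or 3 (adjusted p up to 0.116). *Hspa4l*, a related chaperone, was at 40.5, 38.9 and 35.5 CPM in 20% O2 and 259, 74.8 and 72.7 CPM in 1% O2 and did not pass (log2 change 1.82 ± 0.42, adjusted p = 0.0503). The 8 chaperonin subunits and the HSP60 gene *Hspd1* (log2 fold change −0.021) did not pass either.

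**Figure D3:**
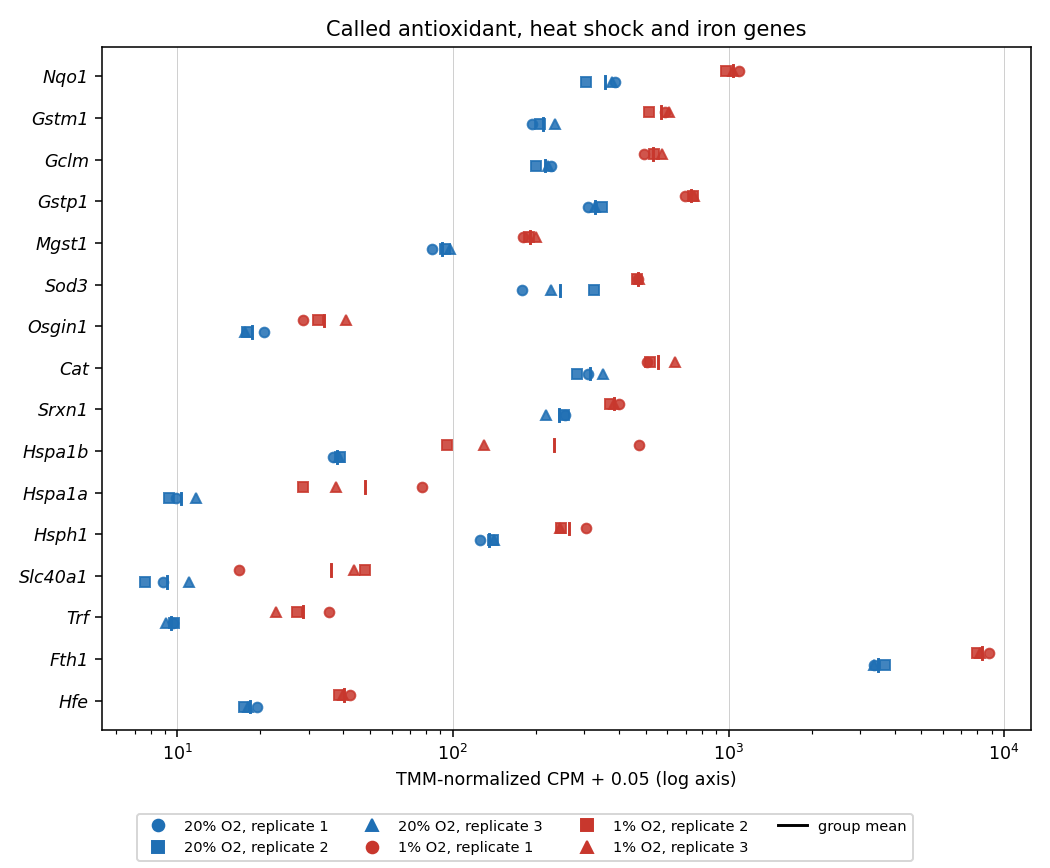
CPM after TMM scaling plus 0.05 on a log axis for the 9 antioxidant, 3 heat shock and 4 iron genes that rose, with 20% O2 in blue, 1% O2 in red, 1 symbol per replicate and a short line at each group mean. All red symbols of a gene lie to the right of its blue symbols, and 1% O2 replicate 1 stands out for *Hspa1b*, *Hspa1a* and *Slc40a1*.

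Genes of clot breakdown and its inhibitors changed in both directions. Of 13 tested, 4 rose and 1 fell (median log2 fold change 0.28). The shares over all genes tested were 1.47% and 0.41%. *Serping1* (ENSMUSG00000023224, chr2:84765387-84775444), the C1 inhibitor, was at 27.1, 37.3 and 36.3 CPM in 20% O2 and 131, 115 and 141 CPM in 1% O2 (log2 change 1.94 ± 0.20, adjusted p = 0.000363). *Plat* (ENSMUSG00000031538, chr8:22757727-22782844), the tissue plasminogen activator, was at 72.0, 126 and 93.9 CPM in 20% O2 and 561, 230.2 and 219 CPM in 1% O2 (log2 change 1.79 ± 0.37, adjusted p = 0.0263), and was not called with the replicate block (adjusted p = 0.0517, edgeR). Replicate 1 was highest for *Plat* in 1% O2, and its log2 fold change was 1.21 without that library. *Tfpi2*, an inhibitor of plasmin and other serine proteases, rose (log2 change 1.39 ± 0.24, adjusted p = 0.0114) and *Procr*, the protein C receptor (log2 change 1.19 ± 0.19, adjusted p = 0.00667). In contrast, *Serpine2* (ENSMUSG00000026249, chr1:79794197-79861180), a secreted inhibitor of thrombin and plasminogen activators, was at 417, 390.2 and 377 CPM in 20% O2 and 241, 266 and 244 CPM in 1% O2 and fell by 0.66 on the log2 scale (SE 0.102, adjusted p = 0.00663 by edgeR). All 3 libraries in 1% O2 were below all 3 in 20% O2. Significance was lost for *Plat* without 1% O2 replicate 1 or 20% O2 replicate 1, 2 or 3 (adjusted p up to 0.135) and for *Tfpi2* without 20% O2 replicate 1 or 3 (adjusted p up to 0.0694).

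Signals that reach other cells rose in a few single genes. Of 17 prostaglandin genes tested, *Ptgs1*, the constitutive cyclooxygenase, rose (101, 115 and 96.4 CPM in 20% O2 and 249, 177 and 182 CPM in 1% O2, log2 change 0.96 ± 0.15, adjusted p = 0.00667) and so did *Ptges*, the synthase of prostaglandin E2 (96.3, 73.7 and 79.3 CPM in 20% O2 and 175, 123 and 135 CPM in 1% O2, log2 change 0.79 ± 0.17, adjusted p = 0.028), while 0 fell. *Inhbb*, the βB chain of activins and inhibin, rose among 22 TGF-beta genes (52.8, 53.1 and 40.2 CPM in 20% O2 and 116, 113 and 104 CPM in 1% O2, log2 change 1.19 ± 0.20, adjusted p = 0.00862). The groups did not overlap for these genes. *Vcam1*, an adhesion molecule for leukocytes, had 452, 465 and 472 CPM in 20% O2 and 565, 752 and 809 CPM in 1% O2 (log2 change 0.61 ± 0.13, adjusted p = 0.0359), and was the gene that rose by edgeR among 30 cytokine and chemokine genes tested. In that list the block gave 3 calls, DESeq2 5 and limma voom 5, all higher, and 13 genes had an unadjusted p under 0.05. Across the 15850 genes tested, 2546 had such a p in edgeR. In the ephrin system, the receptor *Epha1* rose (log2 change 1.72 ± 0.25, adjusted p = 0.00367) and the ligand *Efna2* (log2 change 0.90 ± 0.18, adjusted p = 0.0237). Both were on a list of 61 axon guidance genes whose median log2 fold change was −0.39. Of that list DESeq2 called 3 higher and 3 lower and limma voom 4 higher and 14 lower, and 16 had an unadjusted p under 0.05. A call was not made for *Ptges* without 1% O2 replicate 1 or 3 or 20% O2 replicate 1, 2 or 3 (adjusted p up to 0.129) and for *Vcam1* without 1% O2 replicate 2 or 3 or 20% O2 replicate 1, 2 or 3 (adjusted p up to 0.165). No call was made for *Efna2* without 1% O2 replicate 1 or 2 or 20% O2 replicate 1, 2 or 3 (adjusted p up to 0.112).

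Several other lists had 1 or 2 calls, which are values of single genes and no result about the lists, since 1.88% of all genes tested were called. *G0s2*, an inhibitor of the fat-splitting lipase ATGL, was at 3.16, 1.88 and 4.08 CPM in 20% O2 and 11.4, 9.62 and 13.7 CPM in 1% O2 (log2 change 1.93 ± 0.29, adjusted p = 0.00613), the 1 edgeR call among 27 genes of fatty acid synthesis and lipid droplets, where DESeq2 called 1 higher and 4 lower. *Alkbh5*, which removes methyl groups from RNA, was at 35.3, 33.3 and 33.4 CPM in 20% O2 and 64.1, 59.8 and 59.7 CPM in 1% O2 (log2 change 0.85 ± 0.11, adjusted p = 0.00147), and was the 1 of 24 oxygen-dependent demethylases that edgeR called. *Sparcl1*, a matricellular protein, rose (log2 change 1.39 ± 0.25, adjusted p = 0.0154). *Car11*, a relative of carbonic anhydrases without enzyme activity, rose (log2 change 1.11 ± 0.22, adjusted p = 0.02). *Bsg*, the chaperone of lactate transporters, was at 737, 831 and 780.4 CPM in 20% O2 and 1179, 1191 and 1227 CPM in 1% O2 (log2 change 0.62 ± 0.14, adjusted p = 0.0393). Both genes lost the call with the replicate block (adjusted p = 0.0509 and 0.0601, edgeR). *C1rl*, a protease related to complement C1r, rose (log2 change 1.08 ± 0.17, adjusted p = 0.00825) and *Cdk2ap2*, on the list of unfolded protein response genes (log2 change 0.75 ± 0.17, adjusted p = 0.0393). The call was lost for *Sparcl1* without 1% O2 replicate 1 or 20% O2 replicate 1 or 3 (adjusted p up to 0.0872) and for *Car11* without 1% O2 replicate 1 or 2 or 20% O2 replicate 1, 2 or 3 (adjusted p up to 0.0985). Significance was lost for *Bsg* and *Cdk2ap2* with any 1 library left out (adjusted p up to 0.186 and 0.19) and for *C1rl* without 20% O2 replicate 1 (adjusted p up to 0.0524).

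The genes that fell were fewer and of mixed function. *Pi16* (ENSMUSG00000024011, chr17:29317680-29330593), a peptidase inhibitor that marks a fibroblast subset in many tissues, was at 42.1, 50.4 and 60.0 CPM in 20% O2 and 7.23, 10.8 and 8.80 CPM in 1% O2 (log2 change −2.51 ± 0.35, adjusted p = 0.00279). It was at least 3-fold lower in each 1% O2 library than in any 20% O2 library. *Pde9a* (ENSMUSG00000041119, chr17:31386210-31476310), a phosphodiesterase of cyclic GMP, was at 18.2, 17.0 and 16.3 CPM in 20% O2 and 6.48, 3.66 and 3.88 CPM in 1% O2 (log2 change −1.88 ± 0.26, adjusted p = 0.00258). *Lfng* (ENSMUSG00000029570, chr5:140607320-140615545), which adds sugars to Notch receptors, was at 15.4, 15.4 and 12.6 CPM in 20% O2 and 3.84, 4.57 and 4.71 CPM in 1% O2 (log2 change −1.73 ± 0.17, adjusted p = 0.000285). *Nr4a1* (ENSMUSG00000023034, chr15:101254269-101274795), an orphan nuclear receptor induced early by many stimuli, was at 40.7, 38.5 and 46.3 CPM in 20% O2 and 10.5, 13.1 and 16 CPM in 1% O2 (log2 change −1.67 ± 0.22, adjusted p = 0.00182). These genes were called in each of the 6 fits that left out 1 library. Around *Lfng*, 0 of the other 14 Notch genes tested were called by edgeR (median log2 fold change of the 15, −0.41), and around *Nr4a1*, 0 of the other 20 immediate early genes were (median of the 21, −0.068). DESeq2 called 2 Notch genes and limma voom 5, all lower, and of the immediate early genes DESeq2 called 2 lower, limma voom 4 lower and 1 higher and edgeR with the block 2 lower. *Egr1*, for instance, was at 60.0, 83.6 and 35.1 CPM in 20% O2 and 51.6, 117 and 66.3 CPM in 1% O2 (log2 change 0.39 ± 0.32, adjusted p = 0.599).

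Among the transcription factors and membrane proteins that fell were *Foxf1*, a forkhead factor of mesenchyme (log2 change −1.81 ± 0.38, adjusted p = 0.028), *Dach2*, a corepressor (log2 change −2.06 ± 0.39, adjusted p = 0.018), *Fzd6*, a Frizzled receptor for Wnt (log2 change −1.64 ± 0.30, adjusted p = 0.0154), and *Clic5*, a chloride channel-like protein (log2 change −1.83 ± 0.34, adjusted p = 0.0172). *Foxf1* was at 11.6, 11.3 and 15.9 CPM in 20% O2 and 1.74, 4.78 and 4.53 CPM in 1% O2, lowest in replicate 1. *Wfdc1*, a small secreted protein, was at 41.7, 27.1 and 52.6 CPM in 20% O2 and 7.60, 10.6 and 17.7 CPM in 1% O2 (log2 change −1.76 ± 0.37, adjusted p = 0.0304), and *Fam180a* at 9.31, 3.68 and 6.90 CPM in 20% O2 and 2.66, 0.847 and 1.52 CPM in 1% O2 (log2 change −1.98 ± 0.40, adjusted p = 0.0243). The 2 groups of each gene stayed apart, although the spread within a group was wide for *Fam180a*. *Krt84*, *Fxyd6*, *Sytl1* and *Gramd2* fell with log2 fold changes of −2.03, −2.10, −2.42 and −1.73 from mean levels of 1.25, 1.94, 1.07 and 10.9 CPM, and *Sytl1* was not called with the replicate block (adjusted p = 0.0636, edgeR). A call was not made for *Foxf1*, *Dach2* and *Krt84* without 1% O2 replicate 1 or 3 or 20% O2 replicate 1, 2 or 3 (adjusted p up to 0.112, 0.0851 and 0.16) and for *Fzd6* without 1% O2 replicate 1 or 3 or 20% O2 replicate 1 or 2 (adjusted p up to 0.0763). No call was made for *Clic5* without 1% O2 replicate 3 or 20% O2 replicate 1 (adjusted p up to 0.0838) and for *Wfdc1* without 1% O2 replicate 1 or 2 or 20% O2 replicate 1 or 3 (adjusted p up to 0.134). The call was lost for *Fam180a* without 1% O2 replicate 2 or 3 or 20% O2 replicate 1 or 3 (adjusted p up to 0.123) and for *Fxyd6* without 1% O2 replicate 1, 2 or 3 or 20% O2 replicate 2 or 3 (adjusted p up to 0.161). Significance was lost for *Sytl1* with any 1 library left out (adjusted p up to 0.159) and for *Gramd2* without 1% O2 replicate 1 or 3 or 20% O2 replicate 1 or 3 (adjusted p up to 0.0829). *C7*, a part of the complement membrane attack complex, was at 0.324, 0.448 and 0.184 CPM in 20% O2 and at or under 3 counts in all libraries in 1% O2, so at least 3.77-fold lower, with the floor taken per library. *Gap43*, a growth cone protein, was also scarce, at 1.11, 0.747 and 0.491 CPM in 20% O2 and 0.140, 0.0907 and 0.105 CPM in 1% O2 (log2 change −2.77 ± 0.58, adjusted p = 0.0299). A call was not made for *C7* and *Gap43* with any 1 library left out (adjusted p up to 0.123 and 0.149). *C7* also lost its call under the block (adjusted p = 0.0706, edgeR).

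Amino acid and cell death genes gave a few decreases. Of 40 genes of amino acid synthesis, ATF4 targets and tRNA synthetases, 2 fell and 0 rose by edgeR, and the list's median log2 fold change was −0.31. DESeq2 called 4 of them and limma voom 5, all lower, and 13 had an unadjusted p under 0.05. *Cth* (ENSMUSG00000028179, chr3:157894248-157925077), which makes cysteine from cystathionine, was at 21.8, 15.6 and 24.7 CPM in 20% O2 and 5.07, 6.74 and 6.81 CPM in 1% O2 (log2 change −1.74 ± 0.32, adjusted p = 0.0155). *Wars*, the tryptophan tRNA synthetase, was at 131, 118 and 123 CPM in 20% O2 and 80.7, 77.6 and 83.0 CPM in 1% O2 (log2 change −0.63 ± 0.14, adjusted p = 0.0472). *Asns*, asparagine synthetase and a well known ATF4 target, was at 343, 252 and 299.6 CPM in 20% O2 and 167, 205 and 224 CPM in 1% O2 and did not pass (log2 change −0.59 ± 0.26, adjusted p = 0.287). The glutamine transporter *Slc1a5* was at 204, 175 and 199.97 CPM in 20% O2 and 108, 124 and 136 CPM in 1% O2 (log2 change −0.66 ± 0.15, adjusted p = 0.0393, and 0.0706 with the block). *Pmaip1*, the p53 target NOXA, was at 35.3, 33.4 and 46.4 CPM in 20% O2 and 12.2, 13.9 and 18.6 CPM in 1% O2 (log2 change −1.36 ± 0.26, adjusted p = 0.0173), the 1 edgeR call among 41 CDK inhibitors, p53 targets and BCL2 family genes. All libraries in 1% O2 were lower than all in 20% O2 for *Cth*, *Wars*, *Slc1a5* and *Pmaip1*. *Bnip3*, a BCL2 family gene, and the stress genes *Ddit4* and *Ier3* are not among the 41, since they stand on the lists set aside. These rose, with log2 fold changes of 2.28, 0.82 and 0.84. No call was made for *Cth* without 1% O2 replicate 1 or 3 or 20% O2 replicate 1 or 3 (adjusted p up to 0.0729) and for *Wars* and *Slc1a5* with any 1 library left out (adjusted p up to 0.201 and 0.179). The call was lost for *Pmaip1* without 1% O2 replicate 1 or 2 or 20% O2 replicate 1 or 3 (adjusted p up to 0.0836).

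Among the most abundant genes that fell were *Emp1*, *Tpm1* and *Rai14*. *Emp1* (ENSMUSG00000030208, chr6:135362545-135383173), an epithelial membrane protein gene that fibroblasts also express, was at 1811, 2590.1 and 2406 CPM in 20% O2 and 961, 1324 and 1228 CPM in 1% O2 (log2 change −0.95 ± 0.21, adjusted p = 0.0371). *Tpm1* (ENSMUSG00000032366, chr9:67022590-67049406), a tropomyosin of actin filaments, was at 1128, 1264 and 1061 CPM in 20% O2 and 718, 739 and 758 CPM in 1% O2 (log2 change −0.64 ± 0.13, adjusted p = 0.0235). *Rai14*, an actin-binding protein, was at 192, 206 and 200.2 CPM in 20% O2 and 49.8, 99.96 and 96.6 CPM in 1% O2 (log2 change −1.28 ± 0.27, adjusted p = 0.0316), lowest in replicate 1. *Tpm1* was the 1 edgeR call among 44 genes of the actin cytoskeleton and of SRF and YAP targets, whose median log2 fold change was −0.12 and of which DESeq2 called 2 and limma voom 7, all lower. *Ccn2*, a YAP target, was at 2394, 1854 and 2824 CPM in 20% O2 and 579.7, 1044 and 1602 CPM in 1% O2 (log2 change −1.13 ± 0.31, adjusted p = 0.0881), and *Acta2*, smooth muscle actin, was at 2042, 1359 and 2058 CPM in 20% O2 and 1416, 1105 and 1652 CPM in 1% O2 (log2 change −0.39 ± 0.22, adjusted p = 0.428). With the block *Ccn2* had an adjusted p of 0.047. Markers of pericytes and smooth muscle were read beside these genes: 0 of 7 were called by edgeR, 1 by DESeq2 and 2 by limma voom, 4 had an unadjusted p under 0.05, their median log2 fold change was −0.75, and they summed to 104 to 181 CPM in 20% O2 and 55.7 to 103 CPM in 1% O2, with log2 fold changes of −1.43 for *Cspg4*, −0.75 for *Myh11*, −1.51 for *Notch3* and 0.41 for *Rgs5*. Their part in the result was not tested. Significance was lost for *Emp1* and *Tpm1* with any 1 library left out (adjusted p up to 0.164 and 0.114) and for *Rai14* without 1% O2 replicate 1 or 3 or 20% O2 replicate 1, 2 or 3 (adjusted p up to 0.1).

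Genes of respiration had 0 calls. The respiratory chain passes electrons to oxygen, and ATP synthase uses the gradient it builds. Of 61 nuclear-encoded subunits of complexes I to IV, 15 of ATP synthase, 13 encoded by mitochondrial DNA, 20 genes of the tricarboxylic acid cycle and 20 of fatty acid oxidation, 0 were called by edgeR, by DESeq2 or by limma voom, and 0, 0, 0, 1 and 2 had an unadjusted p under 0.05 in edgeR. The median log2 fold changes of these lists were 0.030, 0.034, 0.019, −0.025 and 0.14. The extremes of the 61 subunits were −0.34 and 0.39. *Cox4i2*, the alternative subunit described above, is not on that list. Of 8 HIF subunits and oxygen sensors outside the 3 lists, 0 were called by any of the 3 tools and 2 had an unadjusted p under 0.05 (median −0.042). The sensors *Egln3* and *Egln1*, which stand on the hypoxia list set aside, rose (log2 change 1.86 ± 0.32, adjusted p = 0.0098 and log2 change 1.05 ± 0.12, adjusted p = 0.000627). *Hif1a* itself was at 337, 344 and 374 CPM in 20% O2 and 496, 370.2 and 410.2 CPM in 1% O2 (log2 change 0.28 ± 0.16, adjusted p = 0.439), with overlapping groups.

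The fibrillar collagens, the main product of tendon cells, varied between replicates. *Col1a1* was at 8318, 5004 and 5848 CPM in 20% O2 and 2286, 6269.6 and 3559 CPM in 1% O2 (log2 change −0.66 ± 0.48, adjusted p = 0.549), *Col1a2* at 3036, 3215 and 2599 CPM in 20% O2 and 2019, 4088 and 2849 CPM in 1% O2 (log2 change 0.017 ± 0.33, adjusted p = 0.989) and *Col3a1* at 3277, 3481 and 3459.7 CPM in 20% O2 and 2029, 3375 and 2807 CPM in 1% O2 (log2 change −0.32 ± 0.42, adjusted p = 0.775). Replicate 1 was lowest and replicate 2 highest of the 1% O2 libraries for each, and the groups overlapped for all 3 genes. The sign of the *Col1a2* value depended on the method and on the library left out. Of 11 fibrillar collagens, 24 other collagens, 25 collagen-modifying enzymes, 12 small leucine-rich proteoglycans and 38 metalloproteinases and TIMPs, 0 were called by edgeR, with median log2 fold changes of −0.12, −0.33, 0.20, 0.46 and −0.33. The collagen prolyl hydroxylases *P4ha1* and *P4ha2* are not among the 25 enzymes, since they stand on the hypoxia list, and they rose (log2 change 1.31 ± 0.11, adjusted p = 9.16e-05 and log2 change 0.78 ± 0.16, adjusted p = 0.0235). At an unadjusted p under 0.05 stood 0, 4, 5, 5 and 8 of the 5 lists, and DESeq2 called 0, 1, 1, 2 and 5 and limma voom 0, 4, 0, 5 and 8. With the replicate block, edgeR called 1 of the proteoglycans higher. It called 1 of the metalloproteinases and TIMPs higher and 1 lower, and 0 of the collagens and collagen-modifying enzymes. By replicate number, the median log2 ratio of the fibrillar collagens was −0.77, 0.35 and −0.30 in replicates 1, 2 and 3, so that replicate 2 was of the other sign. That of the collagen-modifying enzymes was 0.19, 0.24 and 0.24.

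Tendon identity genes had 0 calls. *Scx*, the transcription factor of the tendon lineage, was at 16.7, 19.2 and 9.20 CPM in 20% O2 and 9.70, 15.0 and 6.26 CPM in 1% O2 (log2 change −0.54 ± 0.42, adjusted p = 0.574). *Tnmd*, a membrane protein of mature tendon cells, was at 45.2, 37.0 and 41.5 CPM in 20% O2 and 90.1, 45.4 and 50.8 CPM in 1% O2 (log2 change 0.59 ± 0.45, adjusted p = 0.569). *Mkx*, a homeobox factor of tendon, was at 15.5, 57.5 and 17.4 CPM in 20% O2 and 32.2, 65.6 and 21.3 CPM in 1% O2 (log2 change 0.40 ± 0.47, adjusted p = 0.738), and its log2 fold change ranged from −0.17 without Ctrl 1% O2 replicate 2 to 1.27 without Ctrl 20% O2 replicate 2. *Mkx* and *Scx* were highest in replicate 2 at both oxygen levels, and *Tnmd* was highest in 1% O2 replicate 1. Within replicate numbers 1, 2 and 3, the log2 ratio of 1% over 20% O2 was −0.75, −0.35 and −0.52 for *Scx*, 1.03, 0.19 and 0.29 for *Mkx* and 0.99, 0.29 and 0.29 for *Tnmd*, of 1 sign for each gene, and with the block their adjusted p was 0.12, 0.183 and 0.259. Of 19 tendon markers, 0 were called by edgeR or DESeq2 and 3 by limma voom, 5 had an unadjusted p under 0.05, and the median log2 fold change was 0.29. Such a p was found in edgeR for 2546 of all 15850 genes tested. Other regulators of skeletal fate had few or no calls. Of 32 BMP-SMAD genes edgeR called 0, edgeR with the block 1 (higher), DESeq2 1 and limma voom 5. At an unadjusted p under 0.05 stood 2 of them, and their median was −0.23. Of 18 osteochondrogenic factors 0 were called by any of the 3 tools (0 at an unadjusted p under 0.05, median −0.13), and of 25 HOX genes 0, 0 and 1 were (1 at an unadjusted p under 0.05, median 0.029).

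Genes of cell division also varied by replicate number. Of 44 genes of DNA replication and 47 of mitosis, 0 were called by edgeR or DESeq2 and 2 and 0 by limma voom, 5 and 1 had an unadjusted p under 0.05, and the medians of the log2 fold changes were 0.022 and −0.0024. The median log2 ratio of the mitosis genes was 0.49 in replicate 1, −0.40 in replicate 2 and −0.15 in replicate 3. Ribosomal protein genes, in contrast, had small values of one sign: 74 of 79 had a log2 fold change below 0, the medians by replicate number were −0.099, −0.29 and −0.083, and 0 were called by any of the 3 tools or had an unadjusted p under 0.05. Of 42 genes of ribosome making, 40 had a value below 0, with a median of −0.22. Over all 15850 genes tested, 7917 had a value below 0, and genes of such a family are not independent of each other. Of the 42 genes of ribosome making 0 were called by edgeR or DESeq2 and 5 by limma voom, and 8 had an unadjusted p under 0.05. Among all 15850 genes tested, 2546 had such a p in edgeR.

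**Figure D4:**
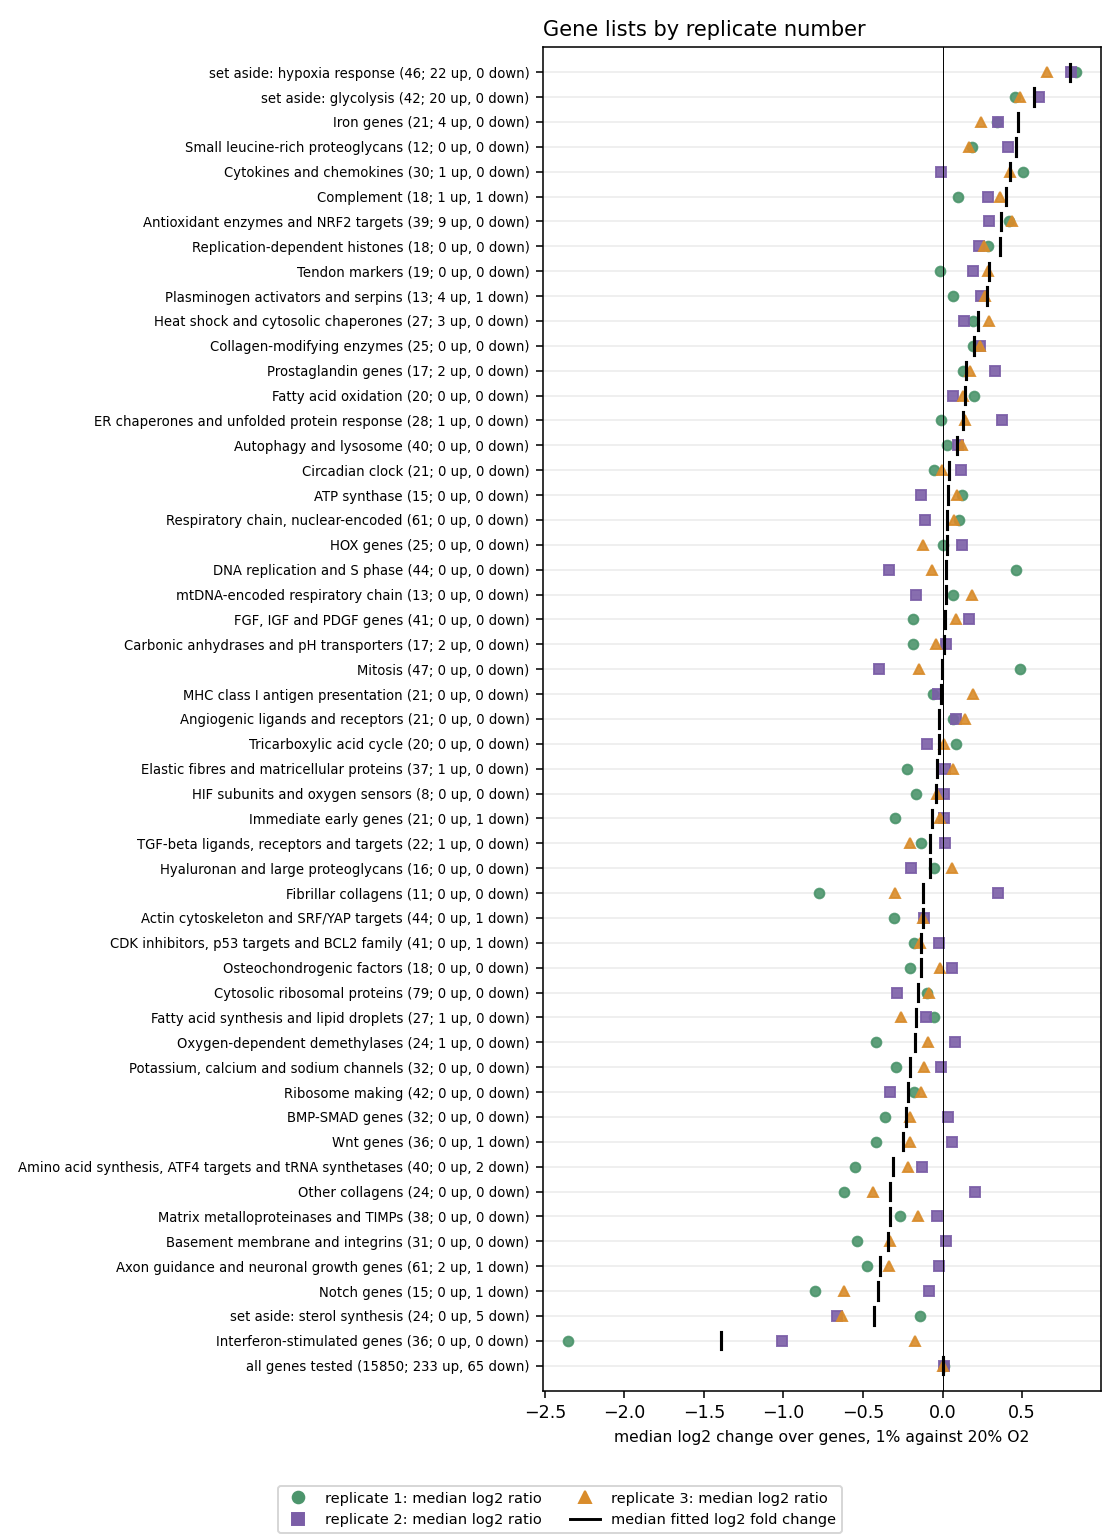
For each list, the median log2 ratio of 1% over 20% O2 is drawn for replicates 1, 2 and 3 (circle, square, triangle; CPM plus 0.5) and the median fitted log2 fold change as a black bar, with the number of genes tested and of calls in each direction in the label. Iron and antioxidant genes lie to the right for every replicate, fibrillar collagens and mitosis genes scatter on both sides of 0, and interferon-stimulated genes spread from −2.35 to −0.18.

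Interferon-stimulated genes had the lowest median of the 49 lists, −1.39, yet 0 of 36 were called by edgeR, DESeq2 or limma voom and 1 had an unadjusted p under 0.05. That median was −3.39 without Ctrl 1% O2 replicate 2 and −0.65 without Ctrl 20% O2 replicate 2. Cells produce these proteins, among them viral RNA sensors and antiviral enzymes, after interferon binds its receptor. Median levels of these genes were 19.9, 34.3 and 2.82 CPM in replicates 1 to 3 in 20% O2 and 1.77, 15.7 and 1.48 CPM in 1% O2. Replicate 3 was thus low and replicate 2 high at both oxygen levels, whereas replicate 1 was high in 20% and low in 1% O2. *Ifit1*, a sensor of viral RNA, was at 127, 276 and 5.09 CPM in 20% O2 and 0.701, 119 and 1.15 CPM in 1% O2 (log2 change −1.76 ± 1.66, adjusted p = 0.661). *Irf7*, an interferon regulatory factor, was at 39.7, 53 and 5.06 CPM in 20% O2 and 2.64, 30.5 and 2.86 CPM in 1% O2 (log2 change −1.45 ± 1.10, adjusted p = 0.574). Groups overlapped for all 36 genes, and 35, 35 and 25 of the 36 were lower in 1% O2 in replicates 1, 2 and 3. The differences between replicates of one group were thus of the size of the difference between groups.

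**Figure D5:**
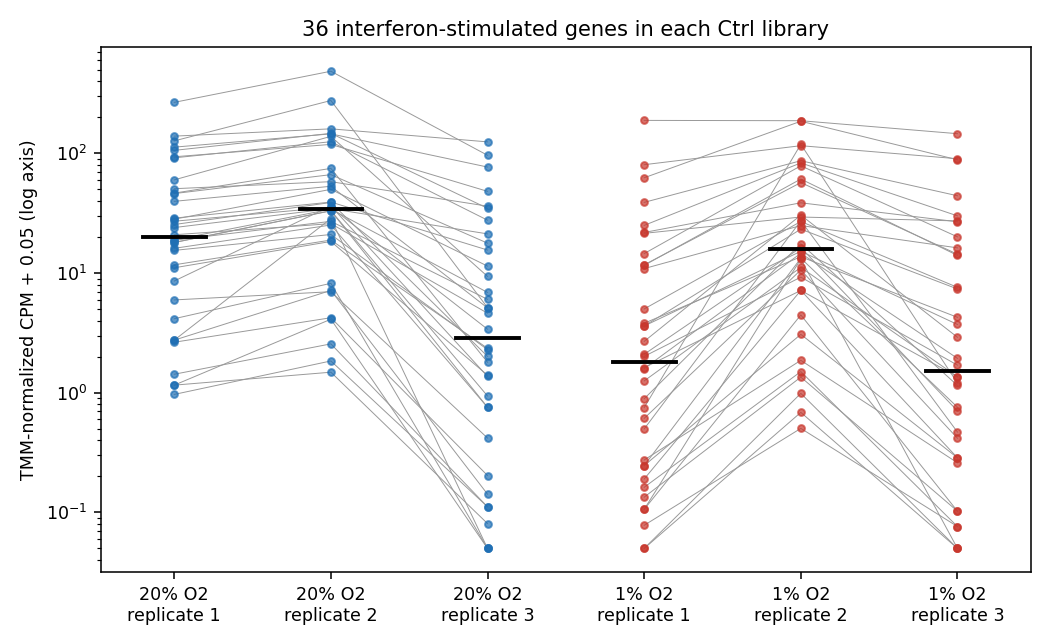
CPM after TMM scaling plus 0.05 on a log axis for the 36 interferon-stimulated genes tested, with 1 point per gene and library, thin lines that join a gene within an oxygen level and a black bar at each library's median. The medians of 20% O2 replicates 1 and 2 and of 1% O2 replicate 2 lie between 15.7 and 34.3 CPM, and those of the other 3 libraries between 1.48 and 2.82 CPM.

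The oxygen response of Ctrl TFs was also set beside that of cKO TFs, whose floxed *Hif1a* meets a Cre made under *Scx* control. *Hif1a* counts did not separate the genotypes, with 351 ± 19.6 CPM in Ctrl and 379 ± 71.8 CPM in cKO TFs in 20% O2 and 425 ± 64.2 and 448 ± 54.9 CPM in 1% O2 (SD, n = 3 each), and counts per gene do not resolve the floxed exon. One cKO library in 1% O2, replicate 1, held only 6857558 counts. The interaction of genotype and O2 was called in 0 of 15850 genes (0%) with edgeR, while 367 genes had an unadjusted p under 0.05, and DESeq2 called 2, *Serpine2* and *Atoh8*, which were named after their values were seen. With the replicate block, DESeq2 called 4, *Sorbs2*, *Atoh8*, *Ifit3* and *Gm10800*, and no longer *Serpine2*. All 233 genes that rose in Ctrl TFs had a positive log2 fold change in the 6 cKO libraries, and all 65 that fell had a negative one. The same sign was found for 74.3% of all genes tested. The median log2 fold change of the genes that rose was 1.22 in Ctrl and 0.94 in cKO TFs, and that of the genes that fell was −1.20 and −0.90. The genes had been chosen in the Ctrl libraries. For *Serpine2*, the log2 fold change was −0.66 in Ctrl and −0.024 in cKO TFs, and the difference of −0.63 (SE 0.14) had an unadjusted p of 0.000811 and an adjusted p of 0.99991 with edgeR.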

How the data were processed

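RNA was taken from TFs of 3 mice per genotype. Per the labels and methods, the authors trimmed paired reads with Cutadapt, aligned them with STAR to GRCm38 (Ensembl) and estimated counts per gene with RSEM 1.3.3; the deposited table holds expected counts, rounded to whole numbers, for 55491 rows. Its 4 transgene rows were left out, and each column was matched to 1 sample. With edgeR 4.0.16 (R 4.3.3), low genes were removed by filterByExpr, libraries were scaled by TMM, and 1 quasi-likelihood model without a block was fitted to the 12 libraries of both genotypes without gesicles. Benjamini-Hochberg adjustment ran over all 15850 genes tested; a call needed a change of 1.5-fold or more besides an adjusted p under 0.05. Same-numbered libraries correlated in their deviations (above), as cells of 1 mouse at both oxygen levels would. Blocked values are therefore given for genes named by the rule below that lost their call, and for some other genes and lists. DESeq2 1.42.0, limma 3.58.1 and other filters and scalings were alternatives. The scripts were tested on simulated data. Coordinates are from GENCODE M21 (GRCm38). Genes named were, outside the 3 set-aside lists, the 12 most changed per direction among those at a mean of 1 CPM or more in the higher group, with groups that did not overlap and without a clone name (Gm or Rik), the 5 most abundant in each direction, up to 4 per list, and fixed tendon genes; other genes named were picked after their values were seen, and a few genes are not reported here. The libraries, lists and named-gene rule were chosen with earlier results of these data known.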

Additional observations from a re-analysis of the deposited data

How the results depend on the processing

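Main counts were 298 genes called (233 higher, 65 lower) and 0 for the interaction. DESeq2 called 692 (440 and 252; interaction 2), with the replicate block 938 (507 and 431; interaction 4). The edgeR replicate block called 368 (271 and 97) and lost *Plat*, *Car11*, *Bsg*, *Slc1a5*, *Sytl1* and *C7* among the named genes. Some list counts moved with it too. The block called 10 antioxidant, 3 prostaglandin and 3 complement genes, all higher. Of the fatty acid synthesis and lipid droplet genes it called 1 higher and 1 lower. The 6 Ctrl libraries alone gave 366, among them 246 of the 298, and, with the replicate block, 523 (355 and 168). Without a low-count filter 123 genes were lower, and with all 18 libraries 109. A test against a fold change of 1.5 called 64 (60 and 4), limma voom 1543 (778 and 765), and an unadjusted p under 0.05 with the same 1.5-fold minimum 1497 (829 and 668; interaction 292). Leaving out 1 library gave 116 to 261 calls (102 to 202 higher, 14 to 59 lower). *Mkx* moved between −0.17 and 1.27 with 1 library left out, and *Col1a2*, at 0.017, took −0.0097 with DESeq2, −0.0089 with RLE factors, −0.035 with the block, −0.061 with DESeq2 and the block, −0.049 with the 6 libraries and the block, −0.0031 with limma voom, and −0.28 to 0.23 with 1 library left out. The cause of these shifts was not tested. With 3 libraries a group, changes in scarce genes such as *C7* and *Gap43* were limited by counts near the floor.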

Other observations

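Some called genes on none of the 49 lists are described here. They were picked after their values were seen, without a list or a count of genes tested, so they stand for no group. Next to *Ces1f* and *As3mt*, *Ces1g*, *Akr1c14*, *Maob*, *Hsd11b1*, *Cyp2d22* and *Aox1* rose by log2 fold changes of 2.42, 1.65, 1.70, 1.79, 1.38 and 0.95. *Maob*, a monoamine oxidase, was at 2.56, 2.06 and 2.39 CPM in 20% O2 and 9.05, 6.59 and 7.23 CPM in 1% O2 (log2 change 1.70 ± 0.19, adjusted p = 0.000581), with groups that did not overlap. *Slc48a1*, which moves haem out of lysosomes, was at 398, 421 and 386 CPM in 20% O2 and 1010.3, 938 and 857 CPM in 1% O2 (log2 change 1.22 ± 0.14, adjusted p = 0.000744). *Abcb6*, a porphyrin transporter, was at 27.0, 24.1 and 24.0 CPM in 20% O2 and 58.6, 44.5 and 44.2 CPM in 1% O2 (log2 change 0.97 ± 0.14, adjusted p = 0.00347), and *Blvrb*, a biliverdin reductase, rose (log2 change 0.95 ± 0.20, adjusted p = 0.0294). *Hmox1*, the haem oxygenase that stands on the hypoxia list set aside, was at 453, 521 and 322 CPM in 20% O2 and 1282, 1682 and 1478 CPM in 1% O2. Lipid genes outside the lists included *Lpl*, lipoprotein lipase, at 30.2, 11.7 and 20.5 CPM in 20% O2 and 53.7, 66.3 and 94.2 CPM in 1% O2 (log2 change 1.78 ± 0.34, adjusted p = 0.0175), and *Enpp2*, which makes lysophosphatidic acid, at 1.97, 3.08 and 4.94 CPM in 20% O2 and 14.6, 10.2 and 14.8 CPM in 1% O2 (log2 change 1.99 ± 0.35, adjusted p = 0.0113).

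Some genes with high fold changes did not pass the test, again noticed after the values were seen. *H3c14*, a histone gene, had 0 counts in all 3 libraries in 20% O2 and 132, 53 and 65 counts in 1% O2, at least 26.7-fold higher with the floor taken per library (adjusted p = 0.0733), but averaged 1.49 CPM in cKO TFs in 20% O2, and its counts are uncertain because histone genes have near copies. In 1% O2, most reads of 4 other genes came from 1 library. *Ccl11*, the chemokine eotaxin, was at 0.756, 0.538 and 0.0307 CPM in 20% O2 and 21.6, 0.605 and 0.576 CPM in 1% O2 (log2 change 4.07 ± 1.38, adjusted p = 0.173). *Cck*, the peptide hormone cholecystokinin, was at 26.4, 16 and 6.53 CPM in 20% O2 and 401, 39.9 and 38.7 CPM in 1% O2 (log2 change 3.29 ± 0.96, adjusted p = 0.109). *Dpt*, the matrix protein dermatopontin, was at 13.6, 7.02 and 3.16 CPM in 20% O2 and 120.3, 7.86 and 9.46 CPM in 1% O2 (log2 change 2.53 ± 0.93, adjusted p = 0.207), and *Stc1*, the hormone stanniocalcin, at 6.53, 4.57 and 5.24 CPM in 20% O2 and 80.2, 9.35 and 16.7 CPM in 1% O2 (log2 change 2.699 ± 0.70, adjusted p = 0.0742). In each of these 4, Ctrl 1% O2 replicate 1 was far above the other 5 libraries. This library also had the lowest sample weight of the 6 in limma voom, 0.449, against 0.805 to 2.27 for the others.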
